A study of Mus musculus with 9 samples.

Results

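The genes described here carry vitamin A into cells, oxidise it to retinoic acid, bind and degrade that acid, and read it at DNA. Of 9 such genes named by their roles (Stra6, Dhrs9, Dhrs3, Aldh1a1, Aldh1a3, Crabp2, Cyp26b1, Rara and Rarg), 8 had probe sets on the array under a symbol of their own, out of 14507 genes measured. No probe set carried the symbol Dhrs3, so it was not analysed here. The rule that picks them uses names and roles, but the genes were chosen with earlier results of these data known. Their levels were compared in 3 compartments of the tail skin of adult, age-matched, wild-type female mice of mixed C57BL6 and CBA background: the lipid-secreting sebaceous gland (SG), the hair follicle (HF), and the skin surface between follicles, called interfollicular epidermis (IFE). All 3 groups shared genotype, sex and body site, none was treated, and the age in weeks was not given in the sources used here. Each array held RNA from a pool of pieces of 1 compartment cut out under a microscope from tail epidermis, with 3 arrays per compartment and 9 in all. A dissected compartment is a mixture of cell types, so fewer cells of a type and less RNA per cell cannot be told apart in any value below.

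Retinol travels in blood on a carrier protein and enters many cells through the membrane receptor STRA6. Dehydrogenases such as DHRS9 and the RDH enzymes oxidise it to retinaldehyde, DHRS3 runs that step backwards, and the ALDH1A enzymes then make retinoic acid in a step that does not reverse. CRABP2 hands the acid to the nuclear receptors RARA and RARG, which bind DNA with an RXR partner, while CYP26B1 hydroxylates it and ends its action. In skin the pathway is known for its effects on keratinocyte cornification and on the size of sebaceous glands, and synthetic retinoids are used against acne.

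Of the 8 measured genes, Dhrs9 was highest in IFE, Stra6 and Aldh1a3 were highest in HF, and the other 5 passed the full threshold in none of the comparisons. Values are log2 of the deposited array intensity, each gene's value being the median over its probe sets, and limma's moderated test was adjusted by Benjamini-Hochberg over all 14507 genes. A gene was called higher or lower where its adjusted p was under 0.05 and its log2 difference was 1 or more in size. In HF against IFE, 3 of 8 genes were called (2 higher, 1 lower), where 6.31% of all genes were called. In SG against IFE 1 of 8 was called, lower, against 9.49% of all genes. In SG against HF 1 of 8 was called, lower, against 5.11% of all genes. The last 2 counts are of 1 gene each, a share near the background. On the adjusted p alone, without the size, 3 of 8 passed in SG against IFE, 3 in HF against IFE and 2 in SG against HF, beside 21.9%, 12.1% and 9.46% of all genes. A test across the 3 compartments at once passed at an adjusted p under 0.05 for 3 of the 8 genes, where 24.5% of all genes passed. These p-values measure the spread between pools of dissected tissue, and the 3 comparisons share arrays.

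**Figure D1:**
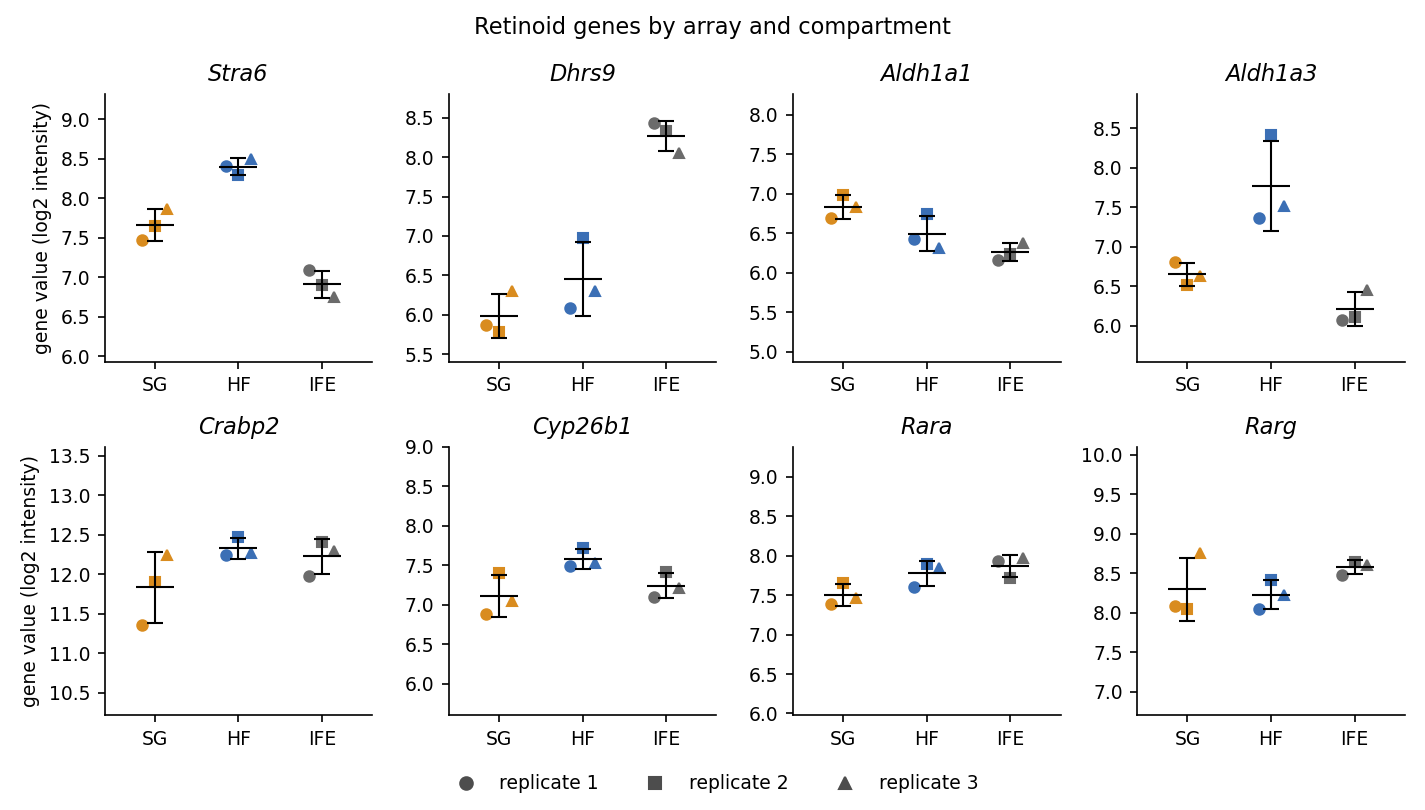
Gene value (log2 intensity, vertical axis, the same span in every panel) of each of the 8 measured retinoid genes on the 9 arrays, by compartment: SG, HF and IFE from left to right. Marker shapes give the replicate, and bars give the mean and SD of 3 arrays. The 3 IFE arrays of Dhrs9 lie between 8.06 and 8.43, above all arrays of both appendages, and the HF arrays of Stra6 and Aldh1a3 lie above all other arrays.

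The sequences upstream of Dhrs9 and Stra6 are shown because these 2 genes had the smallest adjusted p-values of the 8 across the 3 compartments (0.000127 and 0.000321), with IFE the highest compartment for Dhrs9 and the lowest for Stra6. Each run is the 250 bases before a RefSeq transcript start on GRCm38.p6, given 5' to 3' in the direction of transcription, and both genes lie on the plus strand. Dhrs9 had 1 promoter window in that table, at chr2:69380212-69380461, and Stra6 had 4, of which the first by coordinate is shown, at chr9:58128838-58129087. Capitals mark the 6-base core AGGTCA, bound by nuclear receptors, here on the opposite strand as TGACCT.
Dhrs9: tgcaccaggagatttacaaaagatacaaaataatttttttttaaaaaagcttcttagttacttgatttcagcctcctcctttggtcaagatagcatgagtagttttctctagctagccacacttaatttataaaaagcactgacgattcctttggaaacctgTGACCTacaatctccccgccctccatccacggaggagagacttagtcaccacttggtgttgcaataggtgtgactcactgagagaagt
Stra6: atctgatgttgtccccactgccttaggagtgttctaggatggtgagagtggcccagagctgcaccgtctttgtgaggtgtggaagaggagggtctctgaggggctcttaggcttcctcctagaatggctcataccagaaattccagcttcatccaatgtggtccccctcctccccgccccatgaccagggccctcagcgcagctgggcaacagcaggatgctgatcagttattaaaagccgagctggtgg
The core stands 88 bases before the start of Dhrs9 and is not among these letters of Stra6. Only the exact letters of the core were searched, alone or in repeats, so variants of it were not counted in any gene. Of all 32851 promoter windows of 300 bases (250 before and 50 after a start), 16.3% held the core on either strand. Direct repeats of the core with spacers of 5, 2 or 1 bases, searched on both strands and each holding 2 copies of it, were in none of the 17 windows of the 7 genes with an entry, Dhrs3 included, and in 0.00913%, 0.00913% and 0.0396% of all windows. The core alone was also in 1 of 4 windows of Rara and 1 of 2 of Rarg. Aldh1a3 and Crabp2 had no entry. A match is a description of letters and no evidence that a receptor binds there.

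Stra6, the retinol receptor at the cell surface, stood in the order HF, SG, IFE. Its log2 values were 7.47, 7.64 and 7.87 in SG, 8.41, 8.29 and 8.50 in HF, and 7.09, 6.90 and 6.75 in IFE. None of the 3 groups overlapped another, and every HF array lay above every SG array, which in turn lay above every IFE array. Stra6 was higher in HF than in IFE by 1.49 ± 0.17 (log2 ± SE), or 2.80-fold, with an adjusted p of 0.000185. In SG it was 0.75 ± 0.17 above IFE (adjusted p = 0.00936) and 0.74 ± 0.17 below HF (adjusted p = 0.0188). Both of these passed the p but not the required size of 1, with 95% intervals of 0.37 to 1.12 and -1.12 to -0.36.

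Its 20 probe sets, which share the RNA of 1 gene and are no replicates, were uneven in size but mostly of 1 sign. In HF against IFE 19 of 20 were above 0 and 12 were called higher, where 2.99% of all probe sets were called higher. In SG against IFE 19 of 20 were also above 0 and 5 were called higher, with a background of 2.98%. The probe set with the largest difference had log2 values of 4.41, 4.47 and 6.09 in SG, 7.83, 6.73 and 7.79 in HF, and 2.28, 3.02 and 1.91 in IFE. SG replicate 3 lay well above the other SG arrays there. The IFE values of that probe set lay near the bottom of the deposited scale, so the size of its difference is uncertain. The brightest probe set was nearly flat, at 0.29 in HF minus IFE with an adjusted p of 0.515, so a summary by that probe set alone ends the call. The next 2 in brightness, at 0.030 and 0.70, were not called either (adjusted p over all probe sets = 0.957 and 0.0862).

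Dhrs9, a short-chain dehydrogenase that oxidises retinol to retinaldehyde and also acts on steroids, was the member with the largest difference. Its values were 5.88, 5.78 and 6.30 in SG, 6.08, 6.98 and 6.30 in HF, and 8.43, 8.32 and 8.06 in IFE. The IFE arrays stood apart above all 6 appendage arrays, while SG and HF overlapped. Dhrs9 was lower in SG than in IFE by 4.87-fold (log2 -2.28 ± 0.24, adjusted p = 8.33e-05). It was lower in HF than in IFE by 3.52-fold (log2 -1.82 ± 0.24, adjusted p = 0.000449). Between SG and HF the log2 difference was -0.47 ± 0.24, with an interval of -0.99 to 0.060 and an adjusted p of 0.277.

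All 6 Dhrs9 probe sets were below 0 in both SG and HF against IFE, and 4 were called lower in each. The backgrounds of lower probe sets were 12.5% for SG and 3.86% for HF. The probe set with the largest difference from IFE had values of 4.96, 4.91 and 5.80 in SG, 5.18, 7.14 and 4.73 in HF, and 9.32, 9.05 and 8.78 in IFE. HF replicate 2 was the highest appendage array in it, as it was in the gene value. That library also had the highest levels of the interfollicular marker list and of the sebocyte list among the HF arrays, whose part in its Dhrs9 level was not tested. Without it the difference of HF from IFE was -2.08, with an adjusted p of 0.000172.

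The ALDH1A enzymes, which make retinoic acid from retinaldehyde, are described next, Aldh1a3 first. It had values of 6.80, 6.52 and 6.63 in SG, 7.37, 8.41 and 7.51 in HF, and 6.07, 6.10 and 6.46 in IFE. HF lay above both other groups without overlap, and SG lay narrowly above IFE. Aldh1a3 was 2.94-fold higher in HF than in IFE (log2 1.56 ± 0.25, adjusted p = 0.00182). It was 2.17-fold lower in SG than in HF (log2 -1.12 ± 0.25, adjusted p = 0.0161). Between SG and IFE the difference was 0.44 ± 0.25, with an interval of -0.11 to 0.99 and an adjusted p of 0.243.

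The Aldh1a3 call between SG and HF rested on single libraries. Without HF replicate 2, the highest array, the difference was -0.79 (adjusted p = 0.0381), under the required size. Without SG replicate 2 it was -1.05 with an adjusted p of 0.0656. In HF against IFE the call held without HF replicate 2, at 1.23 with an adjusted p of 0.00267. All 15 probe sets were above 0 in HF against IFE with 7 called higher, and all 15 were below 0 in SG against HF with 7 called lower, where 4.27% of all probe sets were called lower. The largest was at 7.07, 6.52 and 7.16 in SG, 9.42, 10.1 and 9.86 in HF, and 5.32, 6.002 and 5.11 in IFE. The HF arrays of that probe set lay more than 2 log2 units above every other array, and HF replicate 2 was not set apart from the other HF arrays. Used as the gene value, the brightest probe set moved by 0.36 in HF minus IFE (adjusted p = 0.311) and by -0.46 in SG minus HF (adjusted p = 0.204), which would end both calls.

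Aldh1a1, the cytosolic retinaldehyde dehydrogenase that also clears other aldehydes, had its highest mean in SG. Its values were 6.69, 6.99 and 6.83 in SG, 6.43, 6.75 and 6.31 in HF, and 6.16, 6.24 and 6.38 in IFE. SG lay above IFE without overlap, and HF overlapped both. The difference of SG from IFE was 0.58 ± 0.17 (adjusted p = 0.0342), past the p but not the size. HF differed from IFE by 0.24 ± 0.17 (adjusted p = 0.431) and SG from HF by 0.34 ± 0.17 (adjusted p = 0.274). The brightest of its 6 probe sets did pass, with values of 8.19, 8.41 and 8.37 in SG, 8.27, 8.38 and 8.58 in HF, and 7.42, 6.75 and 7.09 in IFE. By that probe set alone SG and HF lay together, 1.24 and 1.32 above IFE. With the brightest probe set as the value of each gene, the adjusted p-values were 0.0011 and 0.00121. A second Aldh1a1 probe set was called higher in SG than in IFE (log2 1.13, adjusted p over all probe sets = 0.0232). It was not called in HF against IFE (log2 0.56).

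**Figure D2:**
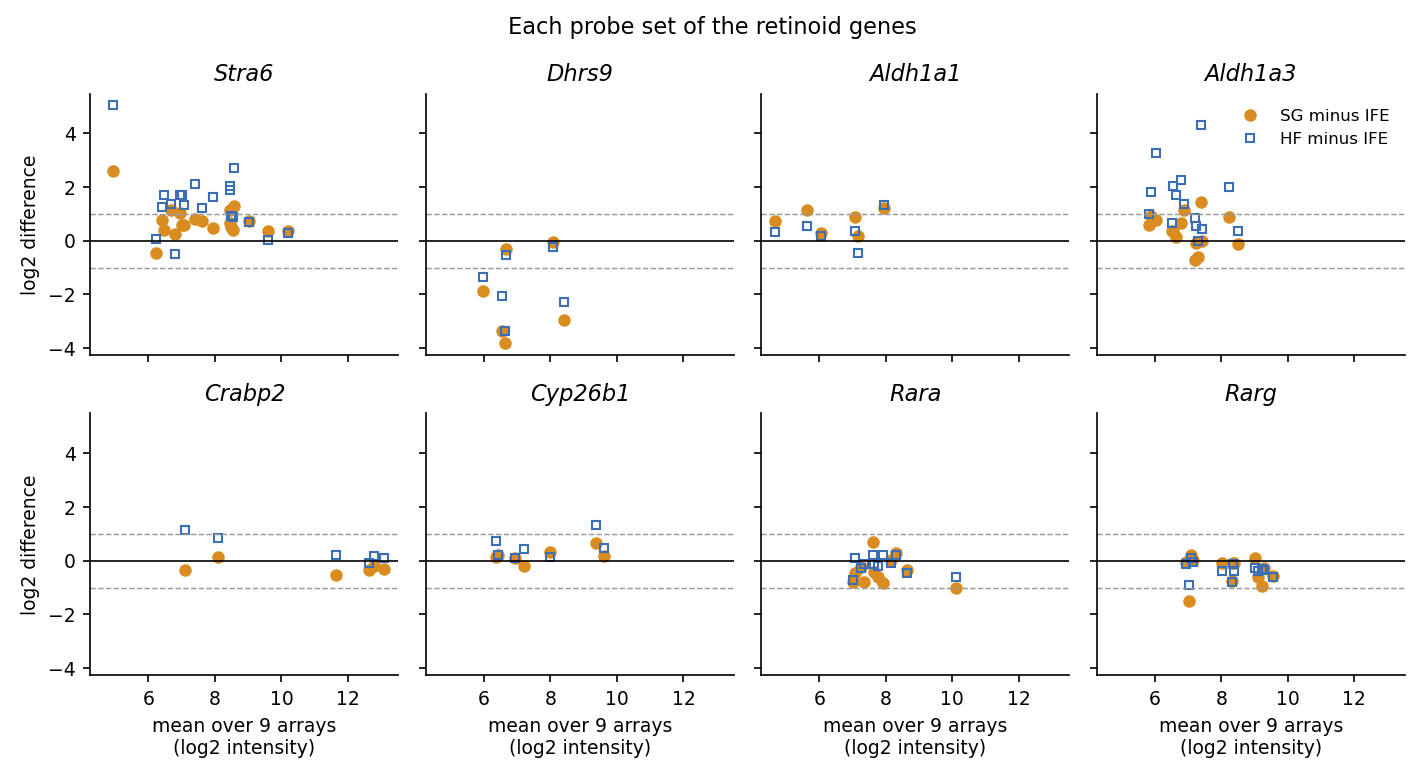
Each of the 85 probe sets of the 8 genes, with its mean over 9 arrays (log2 intensity, horizontal axis) against its log2 difference from IFE (vertical axis), for SG as filled orange circles and HF as open blue squares. Dashed lines mark a log2 difference of 1 in either direction. All 6 Dhrs9 probe sets lie below 0, and 19 of 20 Stra6 probe sets lie above 0 in each compartment.

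Over all 85 probe sets, 14 were called in SG against IFE, a share close to the background of 15.5%. In HF against IFE 24 were called, with a background of 6.85%, and in SG against HF 15 were called, with a background of 5.79%. Those 15 were all lower, and none was higher, where 1.52% of all probe sets were higher. In HF against IFE they were 12 of Stra6, 7 of Aldh1a3, 4 of Dhrs9 and 1 of Aldh1a1.

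Crabp2, the binding protein that delivers retinoic acid to its receptors, had values of 11.36, 11.90 and 12.24 in SG, 12.24, 12.47 and 12.27 in HF, and 11.98, 12.41 and 12.29 in IFE. All 3 groups overlapped, and SG replicate 1 was the lowest array. The difference was -0.39 ± 0.23 for SG from IFE (interval -0.89 to 0.098, adjusted p = 0.24), 0.098 ± 0.23 for HF from IFE (adjusted p = 0.83) and -0.49 ± 0.23 for SG from HF (adjusted p = 0.217). None of its 6 probe sets was called against IFE, and 1 was called lower in SG than in HF (log2 -1.50, adjusted p = 0.0429), with values of 6.30, 6.41 and 6.74 in SG and 7.51, 8.58 and 7.85 in HF.

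Cyp26b1, which breaks down retinoic acid, had values of 6.88, 7.40 and 7.05 in SG, 7.49, 7.72 and 7.52 in HF, and 7.10, 7.42 and 7.21 in IFE. Every HF array lay above every array of both other compartments, by a narrow margin, and SG overlapped IFE. HF was 0.34 ± 0.18 above IFE (interval -0.063 to 0.73, adjusted p = 0.269), and SG was 0.47 ± 0.18 below HF (interval -0.87 to -0.071, adjusted p = 0.144). SG differed from IFE by -0.13 ± 0.18 (adjusted p = 0.641). None of its 7 probe sets was called in any comparison.

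Neither nuclear receptor passed the test as a gene. Rara, the receptor found in most tissues, had values of 7.38, 7.65 and 7.46 in SG, 7.60, 7.90 and 7.84 in HF, and 7.93, 7.71 and 7.97 in IFE. SG lay below IFE without overlap, while HF overlapped both. The difference of SG from IFE was -0.37 ± 0.17 (interval -0.74 to -0.0091, adjusted p = 0.134), that of HF from IFE was -0.094 ± 0.17 (adjusted p = 0.779), and that of SG from HF was -0.28 ± 0.17 (adjusted p = 0.353). Its brightest probe set, 1 of 12, was called lower in SG than in IFE, by -1.02. A different Rara probe set was called lower in SG than in HF, also by -1.02 (adjusted p over all probe sets = 0.0487).

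Rarg, the predominant retinoic acid receptor of epidermis, had values of 8.08, 8.05 and 8.76 in SG, 8.05, 8.41 and 8.23 in HF, and 8.47, 8.65 and 8.61 in IFE. HF lay below IFE without overlap, and SG replicate 3 was above every IFE array while the other SG arrays were below them. HF differed from IFE by -0.35 ± 0.21 (interval -0.80 to 0.11, adjusted p = 0.317) and SG by -0.28 ± 0.21 (adjusted p = 0.373). SG and HF differed by 0.070 ± 0.21, with an interval of -0.39 to 0.53. Of the 13 Rarg probe sets, 1 was called lower in SG than in IFE (log2 -1.50, adjusted p over all probe sets = 0.0221). None was called in the other comparisons. For Crabp2, Cyp26b1, Rara and Rarg these intervals reach differences of up to 0.98 in size, so they do not show equal levels.

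**Figure D3:**
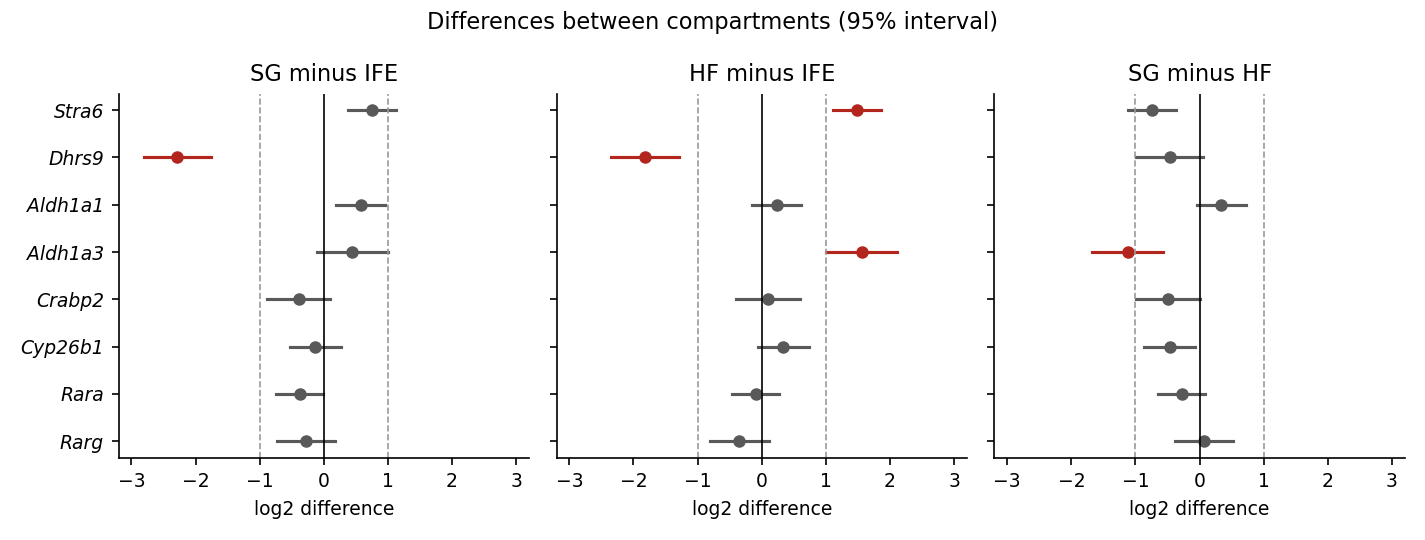
Log2 difference of each gene (point) with its 95% interval (bar) in SG minus IFE, HF minus IFE and SG minus HF. Dashed lines mark a difference of 1 in either direction, and red marks the called genes: Dhrs9 in SG minus IFE, Stra6, Dhrs9 and Aldh1a3 in HF minus IFE, and Aldh1a3 in SG minus HF.

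Counted without a test, 5 of 8 genes had groups that did not overlap in SG against IFE, where 34.9% of all genes did not. The count was also 5 of 8 in HF against IFE, with a background of 32.8%, and 3 of 8 in SG against HF, with a background of 29.3%. The median difference over the 8 genes was -0.21 in SG against IFE, 0.17 in HF against IFE and -0.47 in SG against HF, beside medians over all genes of -0.063, -0.071 and -0.017.

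Across the 9 arrays the genes most like Stra6 were Dock3, Cgnl1 and Krt71, with Pearson's r of 0.988, 0.983 and 0.980, and 189 genes had an r over 0.9 with it. Krt71 is a keratin of the inner root sheath of the follicle. Those most like Dhrs9 were Fxyd4, Ctnnbip1 and Wfdc12 (r of 0.995, 0.991 and 0.990), among 486 genes over 0.9. Those most like Aldh1a3 were Dsc2, a desmosomal cadherin, with Ccdc28b and Bcas1 (r of 0.973, 0.963 and 0.952), among 40 genes over 0.9. Stra6 and Aldh1a3 had an r of 0.815 with each other. These correlations describe arrays that share 3 compartments and carry no test.

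The compartments were checked against marker genes, because for 9 of 9 arrays the name of the scan file pointed to a different compartment from the title. Groups follow the titles. With each gene centred on its mean over 9 arrays, the 14 sebocyte markers averaged 1.29 to 1.68 in SG, -0.45 to 0.082 in HF and -1.49 to -1.16 in IFE. Of these 14, 12 were called higher and 2 lower in SG against IFE, and 8 higher and 2 lower in HF against IFE. In SG against HF 12 were higher and 0 lower. The 14 hair follicle markers averaged -0.56 to 0.82 in SG, 1.61 to 1.91 in HF and -1.75 to -1.71 in IFE. The 10 suprabasal epidermal markers averaged -0.66 to -0.54 in SG, -0.45 to -0.0001 in HF and 0.70 to 1.01 in IFE. For each list the arrays so titled were the highest. In 7 lists of other cells (fibroblast, endothelial, smooth muscle, melanocyte, Langerhans, T cell and adipocyte markers) no more than 1 gene of a list was called in any comparison, and no marker had an intensity of 0. Of these the 4 melanocyte markers ranged most, from -0.33 to 1.25 in SG, -0.36 to -0.19 in HF and -0.62 to 0.081 in IFE. SG replicate 3 was the SG array with the highest follicle markers (0.82), and HF replicate 2 the HF array with the highest sebocyte markers (0.082). With both left out, Dhrs9 differed from IFE by -2.44 in SG and -2.08 in HF, Stra6 by 1.54 in HF and Aldh1a3 by 1.23 in HF, all still called. The Aldh1a3 difference of SG from HF was then -0.78, with an adjusted p of 0.0543.

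The direction of calls over all genes depended on scaling in both comparisons with IFE. In SG against IFE the balance moved most. On the deposited values 26.7% of the called genes were higher there, and after quantile normalization 46.1% were. In HF against IFE 46.8% (429 of 916) were higher on the deposited values and 56.5% (455 higher, 350 lower) after quantile normalization. The differences of Stra6, Dhrs9 and Aldh1a3 against IFE kept their direction and call in HF under quantile normalization and median centring, and so did that of Dhrs9 in SG. Rarg in SG against IFE, at -0.28 on the deposited values, was 0.036 under quantile normalization.

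Members of the wider pathway outside these 8 were counted from lists by role, 76 measured genes in all. Against IFE, 9 were higher and 11 lower in SG, and 4 were higher and 11 lower in HF, where 2.54% and 6.96% of all genes were higher and lower in SG, and 2.96% and 3.36% in HF. In SG against HF 14 were higher and 4 lower, with backgrounds of 1.81% and 3.3%. The median difference of the 76 genes was 0.069 in SG against IFE, -0.19 in HF against IFE and 0.16 in SG against HF.

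Most of the genes higher in SG than in HF were other retinol and retinal oxidoreductases, with 9 of 24 called higher, none lower and a median of 0.89. They included Adh1, an alcohol dehydrogenase that oxidises retinol, at 11.70 ± 0.23 in SG and 9.12 ± 0.60 in HF (log2 mean ± SD, n = 3), a difference of 2.58 ± 0.29 with an adjusted p of 0.000416. In IFE Adh1 averaged 11.40 ± 0.35. It was lower in HF than in IFE (log2 -2.28 ± 0.29, adjusted p = 0.000289), and SG differed from IFE by 0.30 ± 0.29 (adjusted p = 0.489). Dhrs7, a short-chain dehydrogenase that acts on retinoids and steroids, was 2.36 ± 0.27 higher in SG than in HF (adjusted p = 0.00045) and 1.83 ± 0.27 higher in SG than in IFE (adjusted p = 0.00064). Of the 9, Adh1, Dhrs7 and Aldh1a7 stayed called in SG against HF under every alternative setting. Rdh1, Rdh9, Rdh11, Adh7 and Akr1c18 lost the call with the last letter of the scan-file names as a block. Their adjusted p was then 0.0575 to 0.135. That block takes SG replicate 1, HF replicate 1 and IFE replicate 3 out of the differences, as their letters occur on no other array. Adh5 lost the call under 5 of 22 settings and Adh7 under 6.

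Aldh1a7, a mouse paralog of Aldh1a1, had the largest difference of this list. Its place in the list is by family, and whether its enzyme acts on retinaldehyde was not measured here. It averaged 8.51 ± 0.79 in SG, 6.26 ± 0.26 in HF and 5.58 ± 0.39 in IFE, and was higher in SG by 2.93 ± 0.34 against IFE (adjusted p = 0.000149) and by 2.25 ± 0.34 against HF (adjusted p = 0.00188). The sequences of Aldh1a7 and Aldh1a1 are close, so probes may share signal and the split between them is uncertain. Rdh1, which oxidises retinol and sits in a cluster of close relatives that may share signal too, was 1.41 ± 0.24 higher in SG than in IFE and 1.34 ± 0.24 higher in SG than in HF (adjusted p = 0.00146 and 0.00433). With the last letter of the scan-file names as a block, Rdh1 was not called in SG against HF (1.33, adjusted p = 0.0629). In SG against IFE 5 of the 24 oxidoreductases were higher and 2 lower, with a median of 0.26, and in HF against IFE none was higher and 3 were lower, with a median of -0.41.

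Sdr16c5, which oxidises retinol in epidermis, was highest in IFE, as Dhrs9 was. It averaged 8.74 ± 0.12 in SG, 8.55 ± 0.61 in HF and 10.75 ± 0.27 in IFE, a difference of -2.01 ± 0.27 in SG (adjusted p = 0.000377) and -2.20 ± 0.27 in HF (adjusted p = 0.000259). Rdh12, a retinal reductase, was lower in HF than in IFE (log2 -1.41 ± 0.21, adjusted p = 0.00087), a call lost with its brightest probe set. It was also called lower in SG than in IFE (log2 -1.20), a call lost under 3 of 22 settings, with -0.11 by the brightest probe set. The lowest IFE array of Sdr16c5 was above every array of SG and HF, as that of Dhrs9 was.

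Of 10 binding proteins and carotenoid genes, 1 was higher and 2 lower in SG against IFE, and the count was the same in HF. Rbp2 and Rbp7, cellular retinol-binding proteins, were lower in both. The log2 difference of Rbp2 was -1.82 ± 0.26 in SG and -1.68 ± 0.26 in HF (adjusted p = 0.000551 and 0.00127), and that of Rbp7 was -1.73 ± 0.36 in SG and -2.14 ± 0.36 in HF (adjusted p = 0.00522 and 0.00224). Fabp5, a lipid chaperone that can pass retinoic acid to PPAR receptors, rested on 1 probe set and was 1.38 ± 0.21 higher in SG than in IFE and 1.34 ± 0.21 higher in SG than in HF (adjusted p = 0.000838 and 0.00237). Scarb1, a receptor for lipoproteins that also takes up carotenoids, was 1.31 ± 0.21 higher in HF than in IFE (adjusted p = 0.00144). The brightest probe set alone ends the calls of Rbp2 and Scarb1. With the last letter of the scan-file names as a block, the calls of Rbp7 were lost in SG (-1.34, adjusted p = 0.104) and HF (-1.88, adjusted p = 0.0553), and that of Fabp5 in SG against HF (1.32, adjusted p = 0.0538).

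Of 6 genes of retinol esterification and ester hydrolysis, 3 were higher and 1 lower in SG against both other compartments. Lpl, a lipoprotein lipase, averaged 7.70 ± 0.27 in SG, 5.59 ± 0.65 in HF and 4.76 ± 0.24 in IFE, with differences of 2.94 ± 0.29 from IFE (adjusted p = 5.07e-05) and 2.11 ± 0.29 from HF (adjusted p = 0.00114). Awat2 and Dgat1, acyltransferases that can esterify retinol as well as other lipids, were higher in SG than in IFE by 1.46 ± 0.20 and 1.44 ± 0.29 (adjusted p = 0.000456 and 0.00448), and in SG than in HF by 1.18 ± 0.20 and 1.46 ± 0.29 (adjusted p = 0.00372 and 0.00809). Lipe, the hormone-sensitive lipase, was lower in SG, with log2 differences of -1.14 ± 0.24 from IFE and -1.28 ± 0.24 from HF (adjusted p = 0.00547 and 0.00583). Without SG replicate 3 the first of these was -0.99, under the required size. The brightest probe set alone ends the calls of Lpl and Lipe in both comparisons and of Awat2 against IFE, and turns Awat2 to -0.11 against HF. With the last letter of the scan-file names as a block, Dgat1 and Awat2 were not called in SG against HF (0.98 and 1.07, adjusted p = 0.061 and 0.0644). Awat2 is also in the sebocyte marker list, which moved with these genes, and its part in them was not tested. Lrat, the main retinol esterifying enzyme of many tissues, was called higher in HF than in IFE by 1.17 ± 0.35 (adjusted p = 0.0487), a call lost under 10 of 21 alternative settings. Leaving out any array of HF or IFE, or SG replicate 2, was among them, with differences of 1.09 to 1.24 and adjusted p-values of up to 0.153.

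Of 12 partner receptors and cofactors, 1 was lower in SG and 1 in HF against IFE, and none was called in SG against HF. In both it was Rora, an orphan receptor, at 9.13 ± 0.037 in SG, 8.73 ± 0.16 in HF and 10.62 ± 0.27 in IFE (differences of -1.49 ± 0.18 in SG and -1.90 ± 0.18 in HF, adjusted p = 0.000187 and 5.14e-05). Its brightest probe set gave -0.80 in SG against IFE, under the required size. None of the RXR genes, the partners described above, was called in any comparison. Rarb, the remaining retinoic acid receptor, differed from IFE by 0.011 ± 0.18 in SG and -0.0017 ± 0.18 in HF. Rxra, the partner of the receptors in epidermis, was -0.81 ± 0.22 in HF against IFE (adjusted p = 0.0334), past the p but not the size. Cyp1b1, 1 of 2 other hydroxylases, was 1.32 ± 0.32 higher in HF than in IFE (adjusted p = 0.0201). Its adjusted p was 0.0621 to 0.0898 without HF replicate 2, HF replicate 3, IFE replicate 2 or IFE replicate 3, with differences of 1.07 to 1.32.

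Of 22 measured genes known from other systems to respond to retinoic acid, none was higher and 5 were lower in SG against IFE, 1 was higher and 5 lower in HF against IFE, and 1 was higher and 3 lower in SG against HF. The list was not split by the direction of that response, so these counts do not measure it. The lower genes against IFE included Btg2, an antiproliferative gene that also responds to handling stress (-2.36 ± 0.19 in SG and -1.23 ± 0.19 in HF), and Bhlhe40, a transcriptional repressor (-2.07 ± 0.27 in SG and -1.67 ± 0.27 in HF). Their adjusted p-values were 1.45e-05 and 0.00149 for Btg2, and 0.000283 and 0.00157 for Bhlhe40. Tgm1 and Lor, genes of the cornified envelope, were lower in SG than in IFE (log2 -2.57 ± 0.33 and -1.64 ± 0.23, adjusted p = 0.000293 and 0.000476). Lor was also lower in HF than in IFE (log2 -1.65 ± 0.23, adjusted p = 0.000601), as was Meis1, a homeobox gene (log2 -1.16 ± 0.19, adjusted p = 0.00181). Meis1 was no longer called under quantile normalization (-0.96), the mean of probe sets (-0.91) or the brightest probe set (-0.17). Lor is also in the suprabasal marker list, of which 6 of 10 genes were lower in SG and 5 of 10 in HF, and the part of that list in these differences was not tested. Nr2f2, an orphan receptor induced by retinoic acid, was 1.85 ± 0.26 higher in SG than in HF (adjusted p = 0.00141), a call that its brightest probe set ends. The 3 genes lower in SG than in HF were Tgm1 (log2 -2.02 ± 0.33, adjusted p = 0.00295), Btg2 (log2 -1.13 ± 0.19, adjusted p = 0.00374) and Rai14, named for its induction by retinoic acid (log2 -1.10 ± 0.23, adjusted p = 0.0104). Without SG replicate 1 the difference of Rai14 was -0.90, and without HF replicate 3 it was -1.07 with an adjusted p of 0.0519. With the last letter of the scan-file names as a block Rai14 was at -0.99 with an adjusted p of 0.0892. Btg2 in SG against HF was under the required size with the mean of probe sets (-0.97), with the brightest probe set (-0.86) and with SG replicate 3 and HF replicate 2 left out (-0.99), and in HF against IFE under quantile normalization (-0.98).

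**Figure D4:**
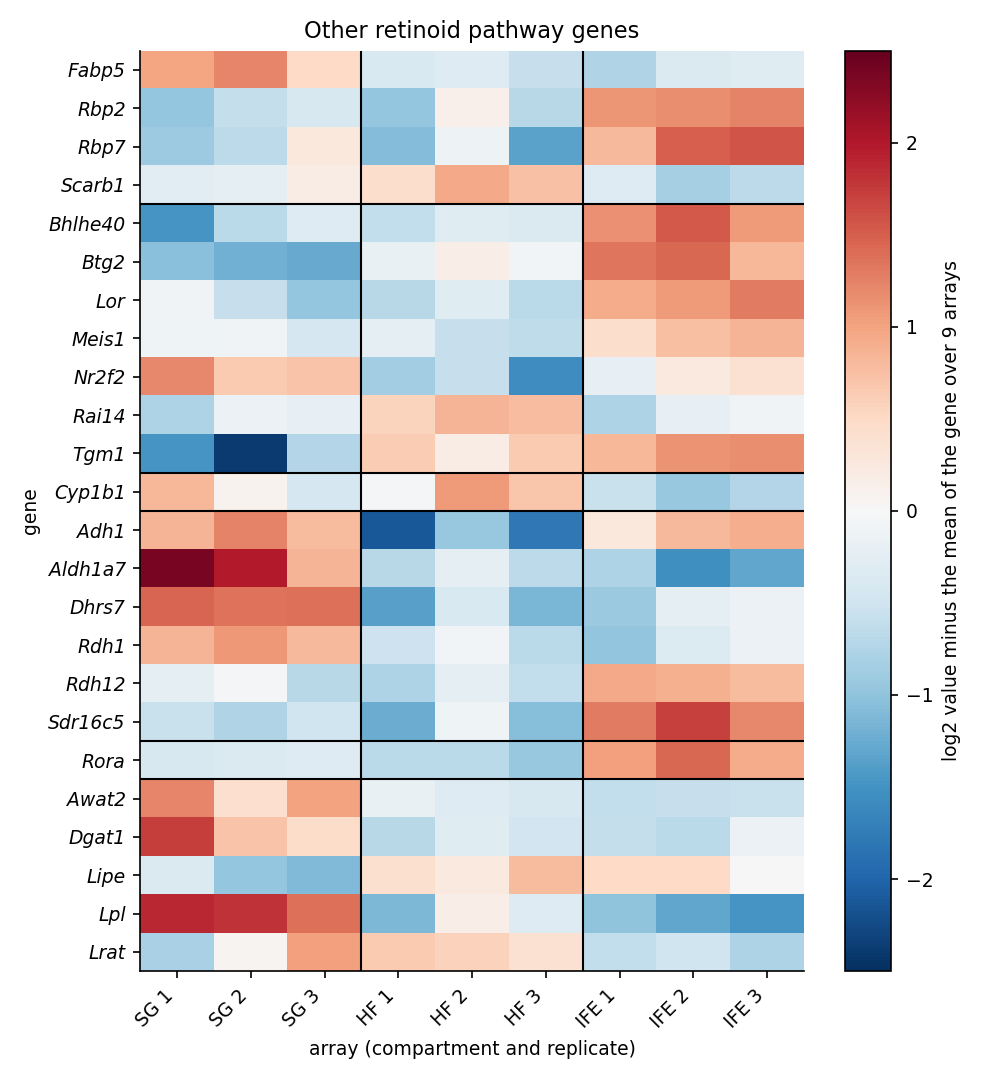
The named pathway genes outside the 8, 1 per line and grouped by role with black lines between the groups, on the 9 arrays from SG through HF to IFE. Colour gives the log2 value minus the mean of the gene over the 9 arrays. Aldh1a7, Dhrs7 and Lpl are highest in SG, and Rbp2, Rbp7, Sdr16c5 and Rora are highest in IFE.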

How the data were processed

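RNA of 9 pools of dissected tissue was amplified and hybridised to 9 Affymetrix mouse exon arrays, per the labels' protocols. The authors deposited an intensity per probe set on a linear scale, from 2.5 to 30815. The submitters' processing notes name RMA, Affymetrix Power Tools and mm9, without versions. Medians of 176 to 234 show that the arrays differed in overall brightness as deposited, and no detection calls were used.

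Values were put on the log2 scale as they stood, without a pseudocount or rescaling. Of 154736 probe sets, 146964 had 1 symbol in the platform annotation, 1060 had several and 6712 had none. Those with 1 symbol were used, and a gene's value was their median (911 of 14507 genes had 1 probe set). Symbols were updated from a RefSeq table for 1746 genes. limma 3.58.1 in R 4.3.3 fitted all 9 arrays with 1 mean per compartment and eBayes, without a block, and gave the SEs, intervals and adjusted p-values. The same fit was run over the 146964 probe sets. The gene fit was tested on simulated data, drawn from the means and residual SDs of 14507 genes over all 9 arrays. In SG against IFE it recovered 82 of 100 changes of log2 1.5 and 100 of 100 of log2 3, with 2 false calls.

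The members and gene lists were chosen with earlier results of these data known. Named pathway genes were, per list and comparison, up to 4 called genes with the smallest p. Rarb and Rxra, the other retinoid receptors described, were called in no comparison and fall outside that rule, chosen after their values were seen. The 3 genes most like a member were named by Pearson's r, for members whose adjusted F p was under 0.05, leaving out unnamed gene models. Sequences came from RefSeq. The number of arrays limits the precision, and alternatives are given at the end.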

Additional observations from a re-analysis of the deposited data

How the results depend on the processing

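The calls of Dhrs9 in SG and HF against IFE held under all 21 alternatives, with log2 differences of -2.96 to -2.06 in SG and -2.30 to -1.63 in HF. Those of Stra6 and Aldh1a3 in HF against IFE were lost under 1 alternative each, the brightest probe set. Counts of genes called over the whole table in SG against IFE, HF against IFE and SG against HF, 1377, 916 and 741, were 1398, 944 and 781 with the replicate block, which left the members called at 1, 3 and 1. Deviations of same-numbered arrays correlated at -0.019 to 0.23, with 2 of 9 pairs over 0.1. Those of differently numbered arrays correlated at -0.16 to 0.11. The main fit did not pair the arrays by number, which the replicate block does. With the last letter of the scan-file names as a block, 392 genes were called in SG against HF and 5, 13 and 1 probe sets of the members, against 14, 24 and 15 without it. SG replicate 1, HF replicate 1 and IFE replicate 3 had letters found on no other array. The differences in that fit therefore rest on the arrays lettered c and d alone. Whether a call was lost through the block or through fewer arrays cannot be told apart. The letter block also ended calls of Rbp7, Rdh11, Lrat and Nr2f2 against IFE. In SG against HF it ended those of Fabp5, Rdh1, Rdh9, Rdh11, Adh7, Akr1c18, Dgat1, Awat2 and Rai14. With the dimmer genes left out (Dhrs9, Aldh1a1, Aldh1a3 and Cyp26b1 among them), 1028, 597 and 555 genes were called in the 3 comparisons. The members called were then 0, 1 and 0, and 1 member differed among compartments. With the brightest probe set 1714, 1063 and 958 genes were called in the 3 comparisons. The members called were then 3 in SG against IFE, 2 in HF against IFE and 0 in SG against HF. A minimum of 0.58 gave 2992, 1724 and 1361 genes, and no minimum gave 3171, 1750 and 1373. The members were then 2 and 3 in SG against IFE and 2 in SG against HF. Leaving out 1 array gave 1146 to 1752, 763 to 1146 and 535 to 994 genes, and 1 to 1, 3 to 3 and 0 to 1 members, 0 without SG replicate 2 or HF replicate 2, with 3 members differing among compartments throughout. With SG replicate 3 and HF replicate 2 left out, chosen after seeing the data, the members in SG against HF were 0.

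These differences changed sign. The brightest probe set gave Cyp26b1 0.16 and Aldh1a3 -0.10 in SG against IFE, Nr2f2 0.047 in HF against IFE (-1.13 and called by the median), and Stra6 0.087, Aldh1a1 -0.084 and Awat2 -0.11 in SG against HF, where the medians gave -0.74 for Stra6 and 1.18 for Awat2. The mean of probe sets gave Cyp26b1 0.20 in SG against IFE and Rarg -0.0032 in SG against HF. Array weights gave Rarg -0.0010 in SG against HF and Crabp2 -0.0020 in HF against IFE. Rarg in SG against IFE was 0.036 under quantile normalization, and in SG against HF it was -0.16 to 0.19 with 1 array left out and -0.070 with both doubted arrays out. Crabp2 in HF against IFE was -0.024 without IFE replicate 1, and Rara was 0.048 with the letter block. The cause was not tested. Dim values limit the size of differences, since signal over background is unknown.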
